A study of Mus musculus with 13 samples.

Results

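Argonaute (AGO) peaks in the 3' untranslated regions (3'UTRs) of mouse cortical mRNAs were examined after stroke. The members were the peaks of the deposited peak table whose region annotation begins with 3'UTR, leaving out the ribosomal RNA precursor Rn45s. They numbered 7835 of 18284 peaks with a position (42.9%), carried 2645 gene names and held 142191 of 395152 peak tags (35.98%). A tag is one sequenced RNA fragment that had been crosslinked to AGO by ultraviolet light. Of the 7835, 603 were annotated as 3'UTR of one transcript and intron of another.

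The groups were the ipsilateral cortex of mice whose middle cerebral artery had been occluded (MCAO; 5 libraries, replicates 1 to 5), the contralateral cortex after MCAO (4 libraries, replicates 1, 2, 4 and 5) and cortex of sham-operated mice, of a hemisphere not given here (4 libraries, replicates 1, 2, 3 and 5). All mice were wild-type C57BL6 aged 7 to 8 weeks and all were anesthetized. Occlusion lasted 35 min and the cortex was collected 3 h later; sham mice had the arteries exposed with no filament inserted. Each replicate number stands for its own day of surgery. How many mice make up a library is not given here, and p-values measure the spread between libraries. The 3'UTR tags per library were 15629, 18083, 17714, 3447 and 2093 in ipsilateral replicates 1 to 5, 18582, 10322, 3862 and 6456 in contralateral replicates 1, 2, 4 and 5, and 18739, 9277, 5764 and 12223 in sham replicates 1, 2, 3 and 5.

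AGO proteins carry microRNAs (miRNAs), which pair with target mRNAs mainly through the seed, the bases near the 5' end of the miRNA. Sites in 3'UTRs are the classical targets: AGO and its partner GW182/TNRC6 proteins recruit deadenylases there, which shortens the poly(A) tail, represses translation and speeds mRNA decay. Sites in coding sequence (CDS) are also bound and are generally thought to repress less. In neurons and astrocytes, miRNA regulation acts on synaptic, cytoskeletal and transporter mRNAs, many of which have long 3'UTRs. The libraries contained no measure of RNA level, so more tags on an mRNA cannot be told apart from more of that mRNA, and in bulk cortex fewer cells of a type cannot be told apart from less RNA per cell.

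The miRNAs below are shown because the sites of their seeds recur in the peaks described here. Sequences are from RefSeq (GRCm38.p6), and capitals mark the seed, bases 2 to 8.
mmu-miR-9-5p: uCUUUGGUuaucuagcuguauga
mmu-miR-26a-5p: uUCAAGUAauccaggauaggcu
mmu-miR-27b-3p: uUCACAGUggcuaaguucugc
mmu-miR-128-3p: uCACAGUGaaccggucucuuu
mmu-miR-29a-3p: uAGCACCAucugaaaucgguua
mmu-miR-29b-3p: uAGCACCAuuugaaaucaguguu
mmu-miR-30a-5p: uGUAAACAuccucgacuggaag
The seeds of miR-27 and miR-128 overlap when shifted by 1 base, so a single site can match both families. Members of the miR-27 family had no miRNA counts in these libraries under these names, so the miR-27 sites below are matches of sequence only. The miR-29 members shown share 1 seed and differ in the bases beyond it.

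The sites below lie in well-covered 3'UTR peaks of these families, though not in every case the most covered ones. They were read from GENCODE M21 transcripts (GRCm38, the assembly of mm10), in the 5' to 3' direction of the transcript. Capitals mark the match to bases 2 to 8, or to bases 2 to 7, with the A that follows it where there is one. The miR-26 site of Ank2 and the sites of Calm3, Sparc and Slc1a2 match bases 2 to 7 followed by A.
Atp1b1, miR-9 site: gtaatgtatgaaataaaACCAAAG
Map1b, miR-9 site: ggttaactgaagcaaatACCAAAG
Ank2, miR-26 site: ttgctgtgttatcaaaaACTTGAA
Ank2, miR-27 site: ttatcaaaaacttgaatACTGTGA
Calm3, miR-27 site: attgtgttcagttcaagCTGTGAA
Lrrc58, miR-128 site: agcaacctacaacctgaCACTGTG
Rhob, miR-30 site: aatggtgaacttatgaTGTTTACA
Sparc, miR-29 site: ggggataaGGTGCTA
Slc1a2, miR-29 site: taagaagaataaaggccGGTGCTA
The Calm3 site (chr7:16915423-16915446, minus strand) lay 1502 nt into a 3'UTR of 1569 nt, under a peak of 407 tags. Calm3 encodes calmodulin. The peak had 34, 70, 85, 15 and 0 tags in ipsilateral replicates 1 to 5, 27, 23, 6 and 6 in contralateral replicates 1, 2, 4 and 5, and 62, 23, 24 and 32 in sham replicates 1, 2, 3 and 5. Its tags were spread over 12 of the 13 libraries, the exception being the shallowest, and the peak also holds a run of at least 15 A or T.

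The Ank2 sites (chr3:126921791-126921814 and chr3:126921783-126921806, minus strand) overlap, so that 1 peak of 147 tags held adjacent matches to miR-26 and to miR-27, and the last of these also matches bases 2 to 7 of miR-128. Ank2 encodes ankyrin-B, which links membrane proteins to the cytoskeleton. The Rhob site (chr12:8497736-8497759, minus strand) matched miR-30 at bases 2 to 8 and was followed by A, under a peak of 99 tags. Rhob encodes a small GTPase. The Atp1b1 site (chr1:164437305-164437328, minus strand) lay in the mRNA of a sodium pump subunit, under a peak of 126 tags. In Map1b (chr13:99424892-99424915, minus strand), the mRNA of a microtubule-associated protein, the peak held 117 tags. The Lrrc58 site (chr16:37882088-37882111, plus strand) had a peak of 121 tags.

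The 3'UTR peaks were all 80 nt wide and most were shallow. The median peak held 12 tags over all 13 libraries (interquartile range 8 to 19, range 3 to 5907), against a median of 10 for CDS and for intron peaks. Only 114 peaks had a tag in every library, and the median peak had tags in 7 libraries. Of the 2645 genes, 1292 had 1 peak, 901 had 2 to 4, 316 had 5 to 9 and 136 had 10 or more. Those 136 genes held 2167 of the peaks. The gene with the most 3'UTR peaks was Slc1a2, which encodes the glial glutamate transporter GLT-1, with 66 peaks and 4218 tags. After it came Psd3 with 46 peaks, Qk (an RNA-binding protein of glia) and Slc24a2 (a sodium, potassium and calcium exchanger) with 38 each, Prkcb (protein kinase C beta) with 36, Kcna1 (a potassium channel) and Pgm2l1 (a glucose 1,6-bisphosphate synthase) with 35 each, and Gabrb2 (a GABA-A receptor subunit) with 32.

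By tags, the most covered genes after Zcchc4, Slc1a2 and Angel2 included mRNAs of calcium signalling, synapse and cytoskeleton. Camk2a, the alpha subunit of calcium/calmodulin-dependent kinase II, had 1083 tags, and Camk2n1, an inhibitor of that kinase, had 853. Ids, a lysosomal sulfatase, had 1000. Psd3 had 798, Atp2b2 (a plasma membrane calcium pump) 794, Snap25 (a vesicle fusion protein) 746, Map1b 663, Adcy1 (a calcium-stimulated adenylyl cyclase) 659, Tmod2 (tropomodulin) 636, Pafah1b1 (the dynein regulator LIS1) 612 and Purb (a nucleic acid-binding protein) 603. Tags of long 3'UTRs were not divided by length, so these counts do not rank binding per base.

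Position was read for 7418 of the peaks, those with at least 50 nt of 3'UTR on a GENCODE transcript of the named gene. The median 3'UTR there was 2890 nt long. When each 3'UTR was divided into 10 equal intervals from the stop codon on, interval 10 held 15.7% of peaks, intervals 1, 2 and 3 held 11.1%, 11.2% and 10.8%, and intervals 6 to 9 held 7.82% to 8.25%. Peaks centred within 100 nt of the annotated end made up 11.7%, and those within 100 nt of the stop codon 2.87%. The median depth was 11 or 12 tags in every interval, so the ends held more peaks and not deeper ones. The peaks were richer in A and T than their surroundings: 61.9 ± 9.36% (SD, n = 7418 peaks) against 56.9 ± 11.03% in 80-nt windows centred 160 nt away in the same 3'UTRs (n = 12983 windows) and 52.7 ± 7.71% in 3782 CDS peaks.

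Seed sites were counted as matches to miRNA bases 2 to 8, or to bases 2 to 7 followed by A, for 56 miRNA families with a RefSeq mature sequence. A site of at least 1 family lay in 4083 of 7418 3'UTR peaks (55.0%), and 20.9% of the peaks held sites of 2 or more families, up to 7 in 1 peak. The share by depth was as follows: 54.1% of peaks with 3 to 9 tags held a site, 55.8% with 10 to 19, 55.1% with 20 to 49, 53.2% with 50 to 99 and 62.5% of the 56 peaks with 100 or more. Site density was highest at the peak centre. On the transcript strand it was 12.8 sites per 1000 bases within 20 nt of the centre and 9.56 at 100 to 200 nt from it, a ratio of 1.34. The same motifs read on the opposite strand gave 9.04 and 8.55 per 1000 bases, a ratio of 1.06.

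Families differed widely in how far their sites concentrated under the peaks. The ratio of peaks with a site to flanking windows with one was above 1 for 39 of 56 families and below 1 for 17, with a median of 1.18. It was 2.15 for miR-9 (2.33% of peaks against 1.09% of windows), 1.98 for miR-129, 1.94 for miR-26, 1.92 for miR-219, an oligodendrocyte miRNA, 1.91 for miR-137 and 1.69 for miR-153. It was 1.64 for miR-30, 1.52 for let-7/miR-98, 1.47 for miR-23, 1.45 for miR-128 and for miR-29, and 1.43 for miR-27. At the low end were miR-99/100 with 0.44 (4 peaks only), miR-146 and miR-10 with 0.64, miR-24 with 0.66, miR-148 with 0.68 and miR-7 with 0.74. Members of miR-27, miR-99/100, miR-129, miR-133 and miR-219 had no miRNA counts in these libraries under these names, so their sites are matches of sequence only. Peaks and flanks differ in base composition, and the part of that difference in these ratios was not tested. Across the 50 families with a member in the miRNA table, the ratio and the family's miRNA tags over the same 13 libraries had a Spearman correlation of 0.35. This describes families that share libraries and overlapping motifs.

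**Figure D1:**
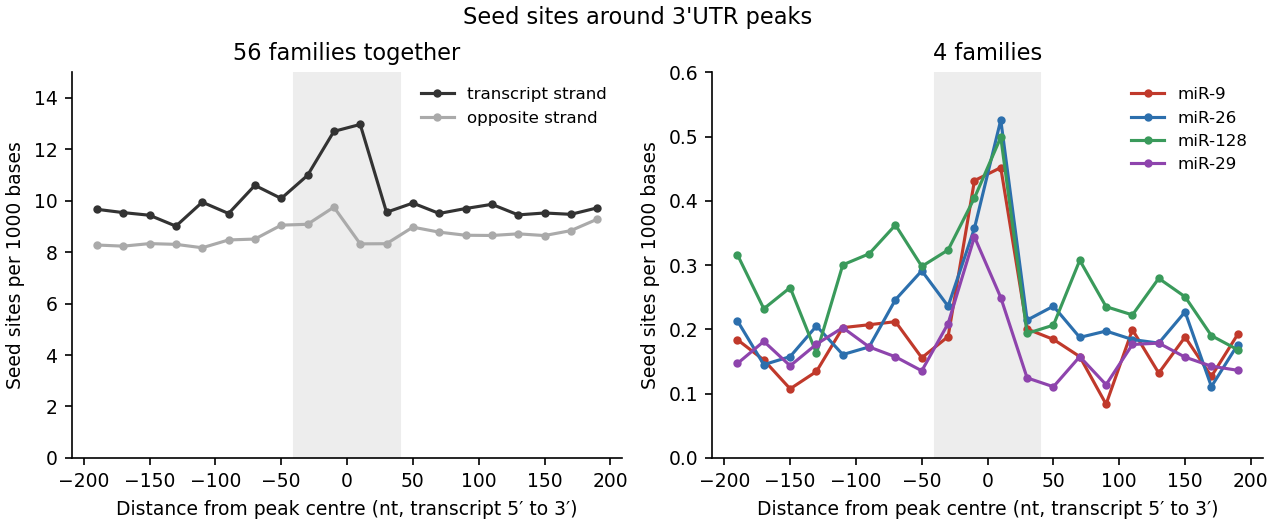
Seed sites per 1000 bases in 20-nt bins by distance from the centre of 7418 3'UTR peaks, with the 80-nt peak shaded; left, 56 families on the transcript strand and on the opposite strand; right, miR-9, miR-26, miR-128 and miR-29. The transcript-strand line reaches 12.97 per 1000 bases just 3' of the centre, and the opposite-strand line has no bin above 9.75.

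Families differed in how often their sites lay in 3'UTR peaks and in CDS peaks of the same libraries. Sites of miR-9 lay in 2.33% of 3'UTR peaks and 8.01% of CDS peaks, let-7/miR-98 sites in 1.50% of 3'UTR and 3.86% of CDS peaks, miR-182 sites in 1.71% and 3.49%, and miR-338 sites in 1.12% and 2.72%. Some families lay the other way. Sites of miR-495 were in 3.07% of 3'UTR peaks and 0.397% of CDS peaks, those of miR-410 in 2.16% and 0.344%, those of miR-340 in 2.89% and 0.740%, and those of miR-374 in 1.79% and 0.582%. Counted by tags and library by library, 23 families had a larger share in 3'UTR than in CDS peaks in all 13 libraries, and 14 had a smaller share in all 13. For miR-9 the share of tags was 1.68% to 2.71% of searched tags in 3'UTR peaks and 6.99% to 11.6% in CDS peaks, and the ranges did not overlap. Base composition differs between 3'UTR and CDS, and its part in these differences was not tested.

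**Figure D2:**
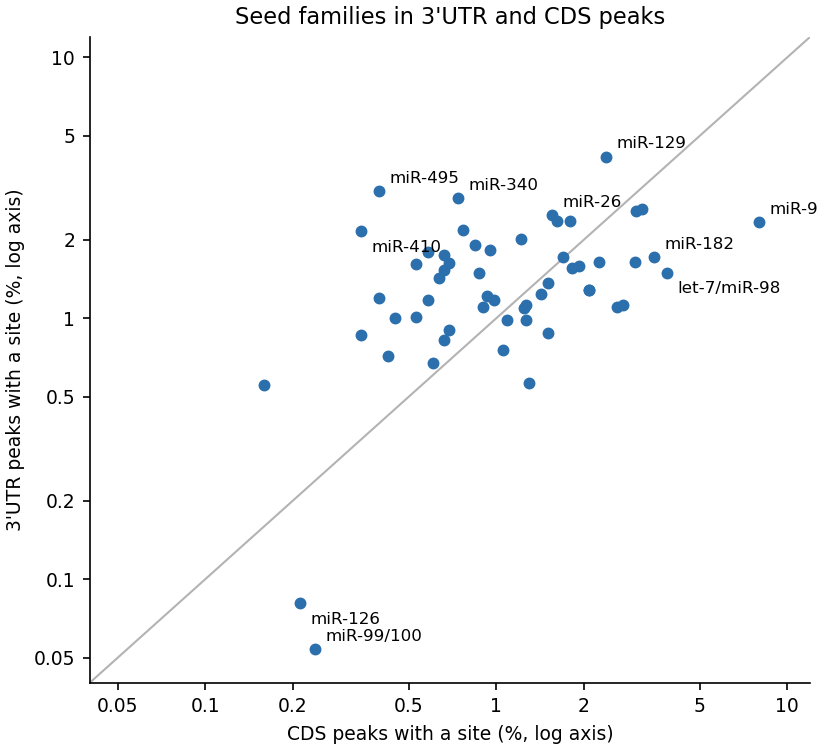
Each point is 1 of 56 miRNA families, with the percent of 7418 3'UTR peaks (y) and of 3782 CDS peaks (x) that hold a seed site, on log axes; the line marks equal shares. Points for miR-495, miR-410 and miR-340 lie above the line and those for miR-9 (8.01% of CDS peaks) and let-7/miR-98 below it.

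Over all 56 families together the difference was small. Site peaks held 56.3 ± 1.28% of 3'UTR tags and 54.7 ± 2.53% of CDS tags (SD, n = 13 libraries each), a difference of 1.58 percentage points, higher in 3'UTR peaks in 10 of 13 libraries (exact sign-flip test over libraries, two-sided p = 0.0190). The direction turned when only 8-base sites were counted (-2.46 points, p = 0.000488, exact) and with peaks of at least 10 tags (-0.28 points, p = 0.708, exact), and the call was lost without the 3 libraries of replicate 1 (1.27 points, p = 0.109, exact).

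Some of the deepest 3'UTR peaks belonged almost wholly to replicate 1. The deepest peak, in Zcchc4 (chr5:52800156-52800235), held 5907 tags, of which 92.1% came from the 3 libraries of that number. Zcchc4 encodes a methyltransferase of ribosomal RNA. The peak had 2128, 56, 96, 13 and 0 tags in ipsilateral replicates 1 to 5, 1415, 27, 3 and 1 in contralateral replicates 1, 2, 4 and 5, and 1900, 42, 203 and 23 in sham replicates 1, 2, 3 and 5. The peak of Angel2 (chr1:190945753-190945832), the second deepest, held 1401 tags, 82.1% of them from replicate 1. Replicate 1 supplied 37.2% of all 3'UTR tags. Of 1886 peaks with at least 20 tags, 35 had 75% or more of their tags in replicate 1, and these held 9534 tags. A run of at least 15 A or 15 T lay in 14 of the 24 that were searched for sites (58.3%), those with at least 50 nt of 3'UTR on a GENCODE transcript. Of the other searched peaks with at least 20 tags, a run lay in 9.41% of those with under 20% of tags in replicate 1. It lay in 4.41% of those with 20% to 40%, 7.10% with 40% to 60% and 13.1% with 60% to 75%. Over searched peaks of every depth the share was 3.07%. The 236 run peaks, which include some outside the searched peaks, held 9496 tags. What gave these peaks their tags was not tested, and results were also computed without run peaks and without replicate 1. Wherever results are given without run peaks, the Zcchc4 peak was left out too, although it was not searched here and is not among the 236.

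Ipsilateral replicate 1 stood apart from the other ipsilateral libraries in heat shock mRNAs. The 6 peaks in the 3'UTR of Hspa1b (between chr17:34956446-34956963), which encodes an inducible 70 kDa heat shock protein, held 0, 73, 32, 16 and 6 tags in ipsilateral replicates 1 to 5, 0, 4, 1 and 0 in contralateral replicates 1, 2, 4 and 5, and 0, 0, 0 and 1 in sham replicates 1, 2, 3 and 5. The 0 of ipsilateral replicate 1 allows up to 1.92 per 10000 3'UTR tags (3 tags, counting error only), while the other ipsilateral libraries had 18.1 to 46.4. Its near copy Hspa1a had 0, 20, 6, 1 and 2 tags on 2 peaks in ipsilateral replicates 1 to 5, against a total of 1 in contralateral and 0 in sham libraries; tags may be shared between the pair. Hsph1, a co-chaperone of the same system, had 4.48 per 10000 in ipsilateral replicate 1 and 9.56 to 16.04 in ipsilateral replicates 2 to 5, with sham libraries at 1.74 to 8.18. The tests of ipsilateral libraries were therefore also run without ipsilateral replicate 1.

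The balance between 3'UTR and CDS tags leaned further to the 3'UTR in ipsilateral libraries. Of tags in either region, 79.0%, 75.7%, 76.0%, 72.9% and 76.6% lay in 3'UTRs in ipsilateral replicates 1 to 5, 68.3%, 69.4%, 68.2% and 75.8% in contralateral replicates 1, 2, 4 and 5, and 76.2%, 65.2%, 68.8% and 67.8% in sham replicates 1, 2, 3 and 5. Contralateral replicate 5 and sham replicate 1 lay within the ipsilateral range and the other 6 lay below it. The ipsilateral mean was 76.0 ± 2.20% (SD, n = 5), against 70.4 ± 3.59% in contralateral and 69.5 ± 4.73% in sham libraries (n = 4 each). The difference of 5.60 points from contralateral passed (exact permutation test, two-sided p = 0.0476), and that of 6.53 points from sham did not (p = 0.0556, exact permutation). Contralateral libraries differed from sham by 0.931 points (p = 0.686, exact permutation). The smallest p these group sizes allow is 0.00794 for 5 against 4 and 0.0286 for 4 against 4.

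Among the 894 genes that hold both a 3'UTR and a CDS peak, the difference was larger. The 3'UTR share there was 70.2 ± 1.60% in ipsilateral libraries (67.9% to 72.3%), 63.5 ± 5.02% in contralateral (58.8% to 70.6%) and 61.8 ± 4.01% in sham libraries (58.6% to 67.7%). Every ipsilateral library lay above every sham library (8.40 points, p = 0.00794, exact permutation, the smallest that can be had), and the difference from contralateral was 6.71 points (p = 0.0397, exact permutation). This restriction was chosen after seeing the data. With the libraries of each group pooled, 315 of 433 genes with at least 20 tags in either region in both groups had a higher 3'UTR share in ipsilateral than in sham tissue and 117 a lower one, with a median difference of 5.77 points. Against contralateral tissue 289 of 399 genes were higher and 108 lower, and for contralateral against sham 184 of 404 were higher and 217 lower. Genes share libraries, so these counts are not independent.

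**Figure D3:**
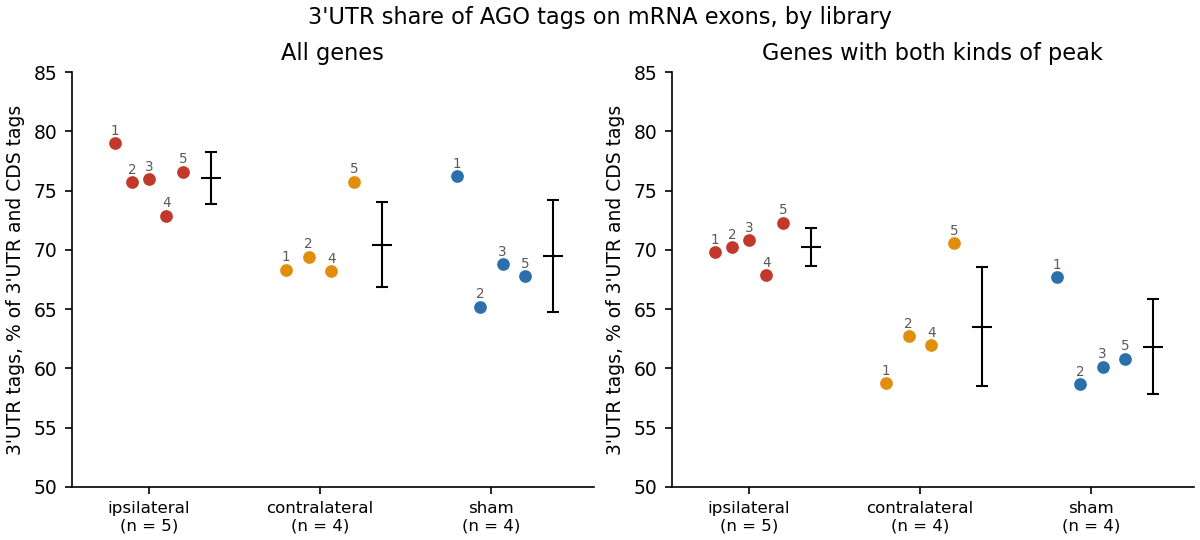
Percent of 3'UTR and CDS tags that lay in 3'UTR peaks, 1 point per library labelled with its replicate number, in all genes (left) and in 894 genes with both kinds of peak (right); bars show mean ± SD and the axis starts at 50%. In the right panel all ipsilateral libraries lie at 67.9% or above and all sham libraries at 67.7% or below.

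Left-out libraries moved the calls. Against sham, the difference over all genes passed without replicate 1 (8.03 points, p = 0.0286, exact permutation), without run peaks (6.88 points, p = 0.0159, exact permutation) and without sham replicate 1 (8.77 points, p = 0.0179, exact permutation). Within surgery days the comparison with sham also has 4 pairs, so an exact sign-flip test there cannot give a p below 0.125. Against contralateral it no longer passed without replicate 1 (4.15 points, p = 0.171, exact permutation) or without ipsilateral replicate 1 (4.85 points, p = 0.0857, exact permutation), or within surgery days (5.62 points over 4 pairs, p = 0.125, exact sign-flip, the smallest 4 pairs allow). The 3'UTR share of all peak tags outside Rn45s, introns and intergenic regions included, did not pass a test. It was 46.8 ± 12.4% in ipsilateral (n = 5), 44.9 ± 11.4% in contralateral and 37.8 ± 9.20% in sham libraries (n = 4 each). Ipsilateral against contralateral and sham gave p = 0.770 and p = 0.246 (exact permutation). Without ipsilateral replicate 1, which had the lowest share of that group (25.2%), ipsilateral exceeded sham by 14.4 points (p = 0.0286, exact permutation). That setting kept sham replicate 1, which was the lowest sham library (27.8%). Contralateral replicate 1 was likewise the lowest of its group (30.0%).

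Tag sums over the 3'UTR peaks of a gene were tested for 303 genes, which held 58.6% of 3'UTR tags. In ipsilateral against sham libraries 1 gene rose and 0 fell (edgeR quasi-likelihood test, Benjamini-Hochberg adjusted p under 0.05 over all 303; 0.33% of genes tested called higher), and 33 genes (10.9%) had an unadjusted p under 0.05. The called gene was Hspa1b, which passed the filter only through the group where its tags were high, so that among tested genes it had to differ and the call adds little to the values. Its 3'UTR tags averaged 26.7 ± 18.5 per 10000 3'UTR tags in ipsilateral (SD, n = 5), 1.62 ± 1.94 in contralateral and 0.205 ± 0.409 in sham libraries (n = 4 each). The fitted log2 fold change over sham was 6.24 (SE 1.26, adjusted p = 0.0246, edgeR), which depends on the prior count because sham held 1 tag. Taken over pooled tags, 127 in ipsilateral and 1 in sham, the ratio was 103 with a 95% exact counting interval of 18.1 to 4082. The call was lost with any 1 sham library left out (adjusted p 0.0882 to 0.194, edgeR), and the gene failed the filter without ipsilateral replicate 2, 3, 4 or 5. Without ipsilateral replicate 1 it was 6.60 (adjusted p = 1.78e-05, edgeR). That library was left out because of its heat shock tags, so this p adds no support for Hspa1b.

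The next genes by p did not pass. Of those with higher values, Pgm2l1 had 17.3, 54.8, 57.0, 92.8 and 66.9 tags per 10000 in ipsilateral replicates 1 to 5, against 27.8, 24.8, 24.3 and 18 in sham replicates 1, 2, 3 and 5. Ipsilateral replicate 1 lay below the sham range and the other 4 above it, and the fitted difference was 1.20 on the log2 scale (SE 0.36, edgeR adjusted p = 0.261). Pgm2l1 makes glucose 1,6-bisphosphate. Snap25 had 21.8 (ipsilateral replicate 1), 94.6, 124, 66.7 and 52.6 per 10000 against 25.6 to 38.8 in sham libraries, again with ipsilateral replicate 1 lowest (1.23 on the log2 scale, edgeR adjusted p = 0.291). Mef2c, a neuronal transcription factor, averaged 26.9 ± 12.2 and 10.7 ± 1.85, with 8.96 in ipsilateral replicate 1.

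Of those with lower values, Dio2, the thyroxine deiodinase of astrocytes, averaged 16.8 ± 5.04 per 10000 in ipsilateral libraries and 30.7 ± 10.8 per 10000 in sham ones (-1.06 on the log2 scale, edgeR adjusted p = 0.261). Cnksr2, a scaffold of the postsynaptic density, had 9.60, 14.9, 16.4, 14.5 and 14.3 in ipsilateral replicates 1 to 5 and 24.01, 35.6, 20.8 and 25.4 in sham replicates 1, 2, 3 and 5. Its groups did not overlap (-0.93, edgeR adjusted p = 0.261). Snhg11, a small nucleolar RNA host gene, averaged 13.6 ± 6.02 and 31.4 ± 7.24 (adjusted p = 0.291, edgeR). Zcchc14 and Sgms1, a sphingomyelin synthase, had log2 fold changes of -1.12 and -2.08 (adjusted p = 0.291 each, edgeR).

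Without ipsilateral replicate 1, edgeR called 6 of 270 genes, all higher: Hspa1b (whose tags set that library apart), Pgm2l1 (1.46, adjusted p = 0.00291), Snap25 (1.50, 0.0106), Mef2c (1.51, 0.0148), Pafah1b1 (1.16, 0.0367) and Enc1 (1.22, 0.0367), an actin-associated protein of neurons. Pgm2l1, Snap25, Mef2c and Pafah1b1 were also lowest in that library among the ipsilateral ones, and sham and contralateral replicate 1 were kept. The library was chosen from these data, so these p-values add no support for the genes called. DESeq2 on all libraries called 8: Hspa1b, Pgm2l1, Snap25, Mef2c and Pafah1b1 higher and Camk2a, Cnksr2 and Dio2 lower. On simulated counts of the same depths for this comparison, 60 of 64 tested genes changed 4-fold and 15 of 50 changed 2-fold were called by edgeR. Changed genes that failed the filter are not in these counts. The simulation gave all genes the same spread between libraries and no effect of surgery day, so recovery in the real data may be lower.

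**Figure D4:**
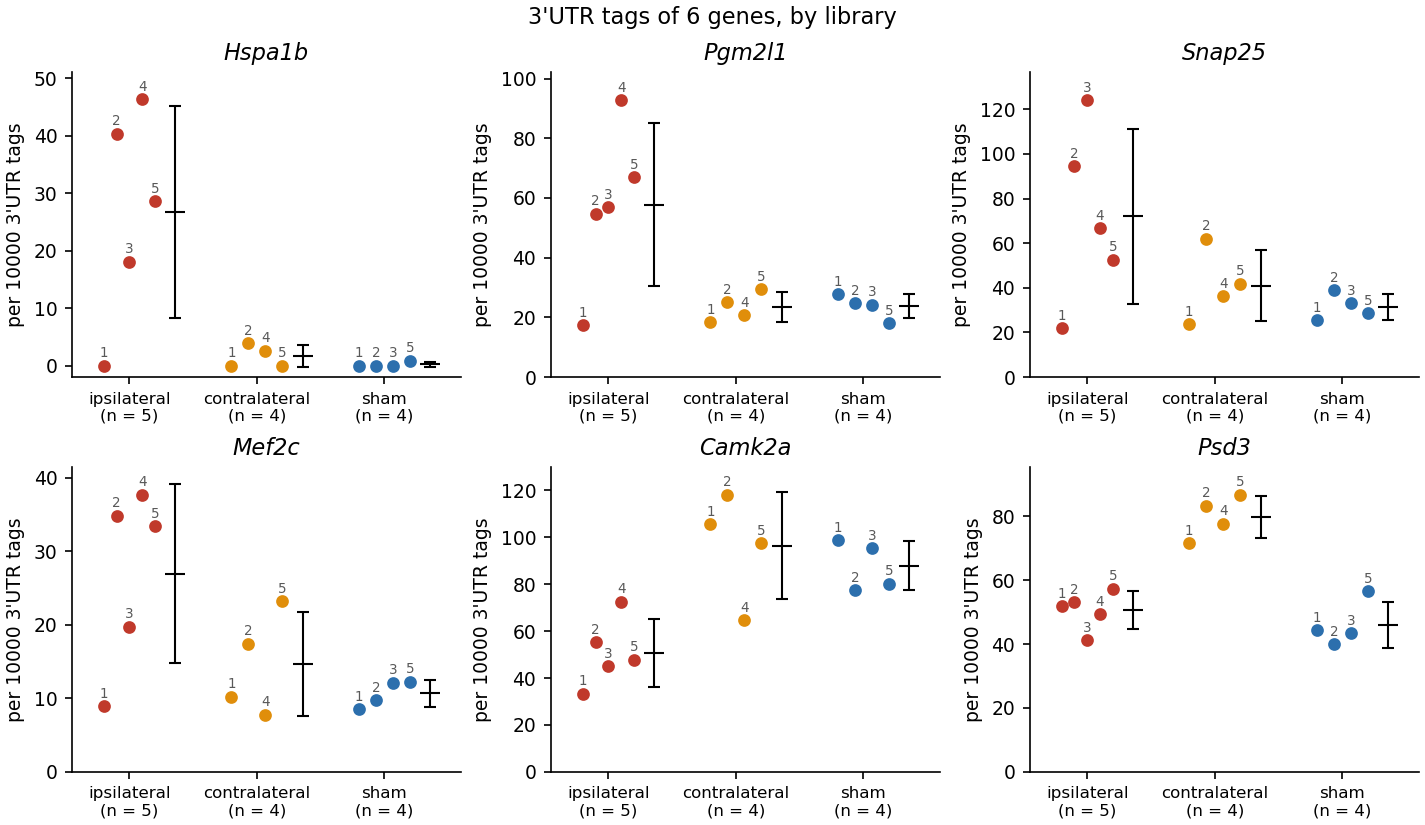
Tags in 3'UTR peaks per 10000 3'UTR tags, 1 point per library labelled with its replicate number, for Hspa1b, Pgm2l1, Snap25, Mef2c, Camk2a and Psd3; bars show mean ± SD. Ipsilateral replicate 1 is the lowest ipsilateral library for Hspa1b (0), Pgm2l1 (17.3), Snap25 (21.8), Mef2c (8.96) and Camk2a (33.3).

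In ipsilateral against contralateral libraries 0 of 303 genes passed (0.0% called in either direction by edgeR), while 34 (11.2%) had an unadjusted p under 0.05 and DESeq2 called 3. Hspa1b had 127 tags in ipsilateral and 5 in contralateral libraries, a ratio of shares of 17.5 (95% exact counting interval 7.30 to 54.8), with a log2 fold change of 4.09 (adjusted p = 0.260, edgeR). With the surgery day as a block it passed (3.88, adjusted p = 0.00249, edgeR), as it did without ipsilateral replicate 1 (4.49, adjusted p = 0.000364, edgeR). The second of these left out the library set apart by its Hspa1b tags and adds no support. Pgm2l1 averaged 57.8 ± 27.2 per 10000 in ipsilateral (n = 5) and 23.4 ± 4.93 in contralateral libraries (n = 4), with a log2 fold change of 1.24 (adjusted p = 0.304, edgeR). Rtn1, a reticulon of the endoplasmic reticulum, averaged 32.3 ± 27.8 and 9.62 ± 5.16, with 81.2 in the shallowest library, ipsilateral replicate 5. Map2k4, a stress-activated kinase, had a log2 fold change of 1.57 (adjusted p = 0.349, edgeR).

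Camk2a stood on the lower side in this comparison. It had 33.3, 55.3, 45.2, 72.5 and 47.8 tags per 10000 in ipsilateral replicates 1 to 5, against 105.5, 118, 64.7 and 97.6 in contralateral replicates 1, 2, 4 and 5. Ipsilateral replicate 4 lay above contralateral replicate 4 and the groups otherwise did not overlap (log2 fold change -0.96, SE 0.30, adjusted p = 0.304, edgeR; adjusted p = 0.00758 by DESeq2). Against sham, where all 4 libraries lay at 77.6 or above, the ipsilateral libraries were all lower (-0.81, adjusted p = 0.291, edgeR). Ncs1 (a neuronal calcium sensor), Zmiz1, Lnpep (an aminopeptidase) and Celf4 (a neuronal RNA-binding protein) also had lower values against contralateral, with log2 fold changes of -1.28, -0.89, -1.47 and -0.90 (adjusted p = 0.304 to 0.349 for these and Camk2a, edgeR).

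In contralateral against sham libraries 0 of 303 genes passed (0.0% called by edgeR; DESeq2 also called 0), and 3 (0.99%) had an unadjusted p under 0.05. Psd3, an exchange factor for the ARF6 GTPase, had 71.6, 83.3, 77.7 and 86.7 tags per 10000 in contralateral libraries, against 39.9 to 56.5 in sham libraries, and the groups did not overlap (log2 fold change 0.79, SE 0.26, adjusted p = 0.990, edgeR). Its ipsilateral libraries had 41.2 to 57.3, overlapping sham, with ipsilateral replicate 5 above the highest sham library. Adcy1 showed the same order with 59.6 to 66.9 in contralateral and 33.6 to 46.6 in sham libraries (0.65, adjusted p = 0.990, edgeR). Pip5k1c, a phosphoinositide kinase of the synapse, averaged 24.01 ± 6.79 and 11.1 ± 3.17 (1.13, adjusted p = 0.990, edgeR). On the lower side were Calm3, Ppap2b, Hipk3, Clip3 and Cnksr2, with log2 fold changes of -0.78, -1.08, -1.25, -1.14 and -0.59 (adjusted p = 0.990 each, edgeR). Ppp2r2c and Zmiz1 had 0.92 and 0.60.

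Gene lists were read by their counts and medians beside those of all 303 genes, whose median log2 fold change in ipsilateral against sham was -0.04, with 136 above 0. Among synaptic vesicle release genes 7 were tested, 6 had a positive value and the median was 0.40. Among the positive ones were Snap25, Cplx2 (complexin, 0.45) and Syt1 (0.40, a calcium sensor of release). Among GABA signalling genes 6 were tested, 4 were positive and the median was 0.36, with Gabrb2, a receptor subunit, at 0.49 beside Gad1, a GABA-synthesizing enzyme, at -0.13. Among glutamate receptor genes 5 were tested, 1 was positive and the median was -0.32, with Gria3 at -0.65, Dlg4 (PSD-95) at -0.68, Grm5 at -0.32 and Gria2 at -0.13. No gene of these 3 lists passed in any of the 3 comparisons by edgeR.

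Glutamate transport genes had 3 members tested: Slc1a2 at -0.19, Glul (glutamine synthetase) at 0.01 and Slc17a7 (a vesicular glutamate transporter) at -0.13. The 3'UTR tags of Slc1a2 averaged 272 ± 59.5 per 10000 in ipsilateral (n = 5), 353 ± 90.6 in contralateral and 309 ± 47.6 in sham libraries (n = 4 each), so that its groups overlapped and no difference passed. Among calcium and CaMK genes 8 were tested, with a median of 0.01 and 4 above 0. Atp2b2 stood at -0.09 and Prkcb at 0.27. Of the miRNA pathway, Tnrc6b, a GW182 protein, was at -0.69 and Ddx6, a decay helicase, at -0.30, and of the 3'UTR-binding proteins Celf4 was at -0.81, Pum2 at -0.36, Qk at -0.26 and Celf2 at 0.03. Immediate early genes had 2 members tested, Homer1 at 0.53 and Nr4a1 at -0.65. Of heat shock genes only Hspa1b reached the filter, and of hypoxia, apoptosis and inflammation genes 0 did.

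Astrocyte markers (11 of 15 listed genes with a 3'UTR peak) took 3.74 ± 0.702% of 3'UTR tags in ipsilateral, 4.64 ± 0.834% in contralateral and 3.94 ± 0.518% in sham libraries. Neuron markers (11 of 15) took 2.45 ± 0.680%, 2.53 ± 0.360% and 2.43 ± 0.112%. Oligodendrocyte lineage markers (5 of 14) took 0.784 ± 0.175% (0.597% to 0.986%), 1.09 ± 0.255% (0.785% to 1.39%) and 0.956 ± 0.0625% (0.906% to 1.05%). Of the 3 members tested, Mbp was at -0.40 and Qk at -0.26 in ipsilateral against sham. Vascular markers (5 of 12) took 0.372 ± 0.157%, 0.535 ± 0.164% and 0.482 ± 0.187%, most of it from Sparc. Gfap, Aldh1l1, Rbfox3, Tubb3, Mog, Olig1 and Olig2 had no 3'UTR peak. None of the 12 microglia and myeloid markers had a 3'UTR peak, and of 6 blood markers 1 did. The part of cell composition in the results above was not tested.

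Sites of 1 family lost tags in ipsilateral cortex. The 122 3'UTR peaks with a miR-29 site, in 114 genes, held 1.54%, 1.59%, 1.47%, 1.57% and 1.58% of 3'UTR tags in ipsilateral replicates 1 to 5, 2.06%, 2.06%, 2.51% and 2.18% in contralateral replicates 1, 2, 4 and 5, and 2.31%, 2.30%, 1.96% and 2.05% in sham replicates 1, 2, 3 and 5. All 5 ipsilateral libraries lay below all 8 others. The family fell by 0.49 on the log2 scale against sham (SE 0.11, adjusted p = 0.00694 over 56 families, edgeR; 1.79% of families called lower) and by 0.50 against contralateral (SE 0.11, adjusted p = 0.00632, edgeR; 1.79% called lower). Against sham, contralateral was at 0.01 (adjusted p = 0.962, edgeR), and 0.0% of families were called in that comparison. This family had been called in earlier work on the same libraries, so the result is no independent support.

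The lower share did not rest on a single peak. The most covered miR-29 site peak, in Sparc (chr11:55395404-55395483, which includes the site chr11:55395469-55395483 shown above), held 453 tags and a run of A, and had 72, 22, 46, 1 and 7 tags in ipsilateral replicates 1 to 5, 88, 14, 16 and 29 in contralateral replicates 1, 2, 4 and 5, and 101, 16, 12 and 29 in sham replicates 1, 2, 3 and 5. Per 10000 pooled 3'UTR tags these were 25.98 in ipsilateral, 37.5 in contralateral and 34.4 in sham tissue. Sparc encodes a secreted matrix protein. Without it the miR-29 site peaks held 1.31 ± 0.190% in ipsilateral (1.08% to 1.54%), 1.84 ± 0.225% in contralateral (1.58% to 2.10%) and 1.87 ± 0.175% in sham libraries (1.75% to 2.12%), again without overlap. The 10 most covered site peaks held 0.290% to 0.793% in ipsilateral, 0.6685% to 0.932% in contralateral and 0.625% to 1.03% in sham libraries. The rest held 0.742% to 1.28%, 1.23% to 1.58% and 1.23% to 1.67%. Within each of these parts the ipsilateral range overlapped the others. The site peak of Slc1a2 (site chr2:102788542-102788565, 7008 nt into a 3'UTR of 9250 nt, 84 tags) had 4.21 per 10000 pooled ipsilateral tags, 5.86 contralateral and 8.04 sham. Of the 35 miR-29 site peaks with at least 20 tags, 25 (71.4%) were lower in ipsilateral than in sham pooled tags and 24 (68.6%) lower than in contralateral. Over all 1809 searched peaks of that depth the shares were 49.8% and 51.5%. The exceptions included a peak of Atp1b1 (4.39 per 10000 in ipsilateral and 2.61 in sham).

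**Figure D5:**
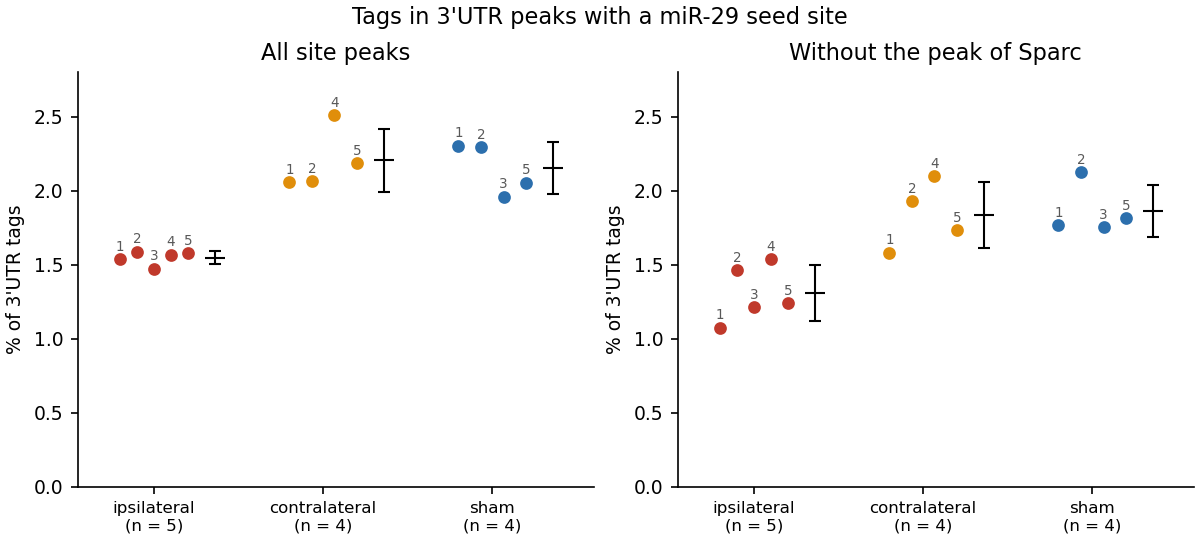
Percent of 3'UTR tags under miR-29 seed sites, 1 point per library labelled with its replicate number; left, all such peaks; right, without the peak of Sparc; bars show mean ± SD. Ipsilateral libraries lie at 1.47% to 1.59% on the left, below contralateral (2.06% and above) and sham (1.96% and above).

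The call was lost against sham without sham replicate 2 (-0.46, adjusted p = 0.0517, edgeR), and in both comparisons when all peak tags were taken as the library size (-0.15 against sham and -0.44 against contralateral). With 8-base sites it passed against sham (-0.71, adjusted p = 0.0177, edgeR) but not against contralateral (-0.42, adjusted p = 0.435, edgeR). With the surgery day as a block, edgeR also called miR-7 lower against sham (-0.55, adjusted p = 0.000204), and against contralateral it called miR-7 (-0.43), miR-338 (-0.53), let-7/miR-98 (-0.38), miR-133 (-0.36) and miR-9 (-0.33) lower beside miR-29. Among the other families with the most site tags, miR-9 sites held 1.83 ± 0.184% of 3'UTR tags in ipsilateral, 2.20 ± 0.323% in contralateral and 2.28 ± 0.247% in sham libraries, and miR-128 sites 2.32 ± 0.159%, 2.66 ± 0.176% and 2.65 ± 0.340%. Sites of miR-26 (2.49%, 2.67% and 2.74%), miR-27 (2.71%, 2.64% and 2.79%), miR-30 (2.10%, 2.23% and 2.25%), miR-181 (1.96%, 1.84% and 1.90%), miR-101 (2.16%, 2.01% and 1.91%) and miR-495 (2.53%, 2.34% and 2.71%) were also not called. For miR-23 the ipsilateral mean was highest (2.54 ± 0.371%, 2.33 ± 0.143% and 2.31 ± 0.106%). Sites of miR-129, miR-340 and miR-410 held 5.82%, 4.03% and 3.04% of searched 3'UTR tags, but 31.9%, 27.8% and 36.2% of these lay in run peaks, that of Angel2 first.

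Single peaks were tested last. Of 238 peaks that passed the filter 62 were 3'UTR peaks, and 0 of the 238 were called in any comparison by edgeR (0.0%); 3, 2 and 1 of the 3'UTR peaks had an unadjusted p under 0.05 for ipsilateral against sham, ipsilateral against contralateral and contralateral against sham. The lowest p in ipsilateral against sham belonged to a peak of Wasf1 (chr10:40938161-40938240), an actin regulator, with 4, 33, 35, 0 and 0 tags in ipsilateral replicates 1 to 5 and 11, 2, 0 and 2 in sham replicates 1, 2, 3 and 5. Contralateral replicates 1, 2, 4 and 5 had 2, 12, 4 and 0. Ipsilateral replicates 2 and 3 held most of its 105 tags, and the fitted difference was 2.57 on the log2 scale (SE 1.20, edgeR adjusted p = 0.996). Peaks of Atp1b1 (chr1:164437808-164437887) and Ndrg4 (chr8:95714836-95714915) had log2 fold changes of 2.20 and 2.15, and peaks of Gria3, Adam23 and Lrrc58 had -1.64, -1.54 and -0.86, with the same adjusted p. The peaks of Wasf1 and Adam23 each hold a run of at least 15 A or T. In ipsilateral against contralateral, a peak of Impact (chr18:12991492-12991571), a translation regulator, had 1, 15, 23, 7 and 4 tags in ipsilateral replicates 1 to 5 and 1, 2, 0 and 0 in contralateral replicates 1, 2, 4 and 5, with 12, 3, 2 and 6 in sham replicates 1, 2, 3 and 5. It stood at 4.34 on the log2 scale (edgeR adjusted p = 0.516) and was called by DESeq2 (4.51, adjusted p = 0.0423) and by edgeR without ipsilateral replicate 1 (4.50, adjusted p = 0.0181). That library had the fewest Impact tags of its group, so the last p adds no support. Peaks of Rgs4, Gria3 and Camk2a were at 1.53, -1.56 and -1.04 (edgeR adjusted p = 0.981 each). In contralateral against sham the peaks of low p included that of Wasf1 at 1.59 and peaks of Slc1a2 at 1.21 and 1.12 on the higher side, and those of Impact at -2.51 and Adam23 at -1.47 on the lower (edgeR adjusted p = 0.9999 each).

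The balance of 3'UTR and CDS tags also differed between genes. Of 444 genes with at least 100 tags in either region, the median had 81.3% of them in the 3'UTR, 355 had more than 50%, 112 had all and 12 had none. With all tags in the 3'UTR the deepest were Zcchc4, Angel2, Adcy1, Tmod2 and Purb. With none in the 3'UTR were, among others, Mycbp2 (a large ubiquitin ligase), Srrm2 (a splicing factor), Pwwp2a, Ywhah (a 14-3-3 protein) and Capza2 (an actin capping protein). The annotation of the deposited table decided the region of each peak, and the part of annotation in these extremes was not tested.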

How the data were processed

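Tags were counted per AGO peak in 13 CLIP libraries. Per the labels' protocols, footprints were cloned by BrdU capture and sequenced as 50-base single-end reads. Reads were aligned with Novoalign to mm10, per the submitters' processing notes. Neither the peak caller nor any removal of duplicate tags was given in the sources used here. The deposited values are raw counts, not normalized. Tags may not be independent molecules, and intervals and floors cover counting error only. No strand is given per peak, so the strand of the named gene was used.

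The members, gene lists and tests were chosen with earlier results of these data known. Peaks were placed on GENCODE M21 transcripts by gene name. Counts of single peaks, 3'UTR sums per gene (303 tested) and sums per seed family (56) were tested with edgeR 4.0.16 (quasi-likelihood, filterByExpr, all libraries in 1 fit, two-sided, Benjamini-Hochberg); gene and family sums used 3'UTR tags as library size. DESeq2 1.42.0 was the alternative, and both were run in R 4.3.3. Shares were compared by exact permutation over libraries. The gene test was tested on simulated data. A gene's level is given per 10000 3'UTR tags of its library.

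The text names the 15 genes with the most 3'UTR tags, the 8 with the most peaks, called genes or the 5 of smallest p in each direction, 3 peaks in each direction, up to 4 tested genes per list, the 12 families with the most tags, and the 5 genes at either end of the 3'UTR share; others were chosen after their values were seen. A few genes that this rule picks are not reported here. Replicate numbers pair libraries because each stands for a day of surgery, per the series' design text. Deviations of same-numbered libraries correlated between -0.063 and 0.591.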

Additional observations from a re-analysis of the deposited data

Results flagged for a closer look

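Each library below lay far from the rest of its group: its gap to the nearest library was large for the range of the group. This held in 9 of 126 groups of 4 or 5 libraries, and chance sets apart about 1 group in 20. Ipsilateral replicate 1 had 25.2% of its peak tags outside Rn45s in 3'UTRs, against 49.4% to 55.8% in ipsilateral replicates 2 to 5. Replicate 1 was also lowest in the contralateral (30.0%) and sham (27.8%) groups, which were not flagged for this share. Of 3'UTR and CDS tags, contralateral replicate 5 had 75.8% in 3'UTRs, against 68.2% to 69.4% in the other contralateral libraries. Sham replicate 1 was low for miR-128 sites (2.145% of 3'UTR tags, against 2.77% to 2.86%) and for miR-9 sites (1.91%, against 2.36% to 2.43%).

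In tags per 10000 3'UTR tags, Cnksr2 was low in contralateral replicate 4 (12.95, against 18.4 to 18.8) and Hipk3, a nuclear kinase, was high in ipsilateral replicate 4 (17.4, against 2.77 to 4.78). Rtn1 was high in ipsilateral replicate 5, the shallowest library (81.2, against 12.8 to 25.4), and Zmiz1 in sham replicate 2 (22.6, against 17.2 to 17.6). Hspa1b was at 0.818 in sham replicate 5 from 1 tag, with 0 in the other sham libraries. The part of depth in these values was not tested.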

How the results depend on the processing

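Hspa1b over sham and miR-29 in both ipsilateral comparisons kept their direction under every alternative that gave a value. Counts of calls did not. Single 3'UTR peaks called in ipsilateral against contralateral were 1 with DESeq2 and 0 to 1 with a library left out. Genes called in ipsilateral against sham (1) were 8 with DESeq2, 2 with no filter and 0 to 6 with libraries left out. In ipsilateral against contralateral (0) they were 1 with the replicate block, 3 with DESeq2, 2 with all peak tags as library size, 2 without run peaks, 2 with no filter and 0 to 4 with libraries left out. Seed families called in ipsilateral against sham (1) were 2 with the replicate block, 0 with all peak tags as library size and 0 to 3 with libraries left out (3 without sham replicate 1, which adds let-7/miR-98 and miR-7). In ipsilateral against contralateral (1) they were 6 with the replicate block, 0 with all peak tags as library size and 0 with 8-base sites. With the replicate block, Hspa1b passed against contralateral, the 3'UTR share no longer did, and the added families were miR-7 against sham and miR-7, miR-338, let-7/miR-98, miR-133 and miR-9 against contralateral; it changed no other call. The miR-29 difference of contralateral from sham changed sign: -0.0536 with the replicate block, -0.0246 with DESeq2, -0.0149 with TMM factors, -0.0601 without run peaks, -0.287 with 8-base sites, and -0.0442 to 0.0669 with libraries left out.

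The 3'UTR share of all peak tags outside Rn45s in ipsilateral minus sham was 7.05 points with each peak counted once (p = 0.0397, exact permutation) and 5.68 to 14.4 with libraries left out. In ipsilateral minus contralateral it was -3.06 (without contralateral replicate 1) to 7.32. The 3'UTR share of 3'UTR and CDS tags in ipsilateral minus sham was 4.99 with each peak counted once, 6.88 without run peaks, 8.395 in genes with both kinds of peak and 5.09 to 8.77 with libraries left out. In ipsilateral minus contralateral it was 5.62 with the replicate block, 3.43 with each peak counted once, 5.355 with peaks of at least 10 tags, 5.30 without run peaks and 4.15 to 7.375 with libraries left out. In contralateral minus sham it was -0.844 to 3.88. The seed site share of 3'UTR minus CDS tags was -2.46 with 8-base sites, -0.281 with peaks of at least 10 tags and 1.21 to 1.85 with libraries left out. The cause of these changes was not tested. Of the 7835 peaks, 62 reached the filter; with no filter, 0 of 7835 were called by edgeR (514 to 640 had an unadjusted p under 0.05). In simulated counts 2-fold changes of genes were mostly missed.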
